A study of Mus musculus with 36 samples.

Results

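The cluster of miR-221 and miR-222 is a pair of neighbouring microRNA (miRNA) genes whose hairpins give 4 mature miRNAs, named mmu-miR-221-3p, mmu-miR-221-5p, mmu-miR-222-3p and mmu-miR-222-5p in the mouse. The members were the 4 entries of the count tables that carry these names, out of 1966 mature mouse miRNA names, by a rule that uses no measured value. They were followed through small RNA sequencing of CD4+ TCRb+ T cells that had been sorted from the spleens of C57BL/6J mice. One experiment set wild-type cells (WT) against cells of AGO134-/- littermates, a knockout (KO) of the Argonaute genes AGO1, AGO3 and AGO4, with 4 libraries of each genotype as naive cells, 4 of each at day 7 of T helper 2 (Th2) culture and 3 of each at day 14. The other experiment set CD4Cre;R26LSLeYFP control cells (Cre, 3 libraries as naive and 3 as Th2 cells) against CD4Cre;R26LSLeYFP;AGO2f/f cells (4 and 4). Cre and the eYFP reporter are carried by both of these groups, and the CD4 promoter limits the deletion of the floxed AGO2 alleles to the T cell lineage. The sample labels put its Th2 cells at day 5 of culture, while the text of the series speaks of day 7. The labels do not say that the libraries of a group come from separate mice, so each p-value measures the spread between these libraries. miRNA counts do not measure the Ago genes, and the genotype labels were not checked.

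miRNAs are cut from hairpins in 2 arms, named 5p and 3p, and one arm is usually kept in an Argonaute protein while the other is mostly degraded. The kept strand finds target mRNAs by its seed, the bases 2 to 8 counted from its 5′ end. miR-221-3p and miR-222-3p share a seed, are made from neighbouring hairpins that are thought to come from 1 transcript, and are best known as repressors of the cell cycle inhibitor p27 (gene Cdkn1b) and of the receptor tyrosine kinase Kit. In T cells they are known as activation-responsive miRNAs.

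The sequences below are shown because they tell which members share a seed. They were copied from RefSeq (GRCm38.p6), which held 3 of the 4 members, and the seed is in capitals. miR-222-5p had no entry there.
miR-221-3p: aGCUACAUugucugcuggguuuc
miR-222-3p: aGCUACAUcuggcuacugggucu
miR-221-5p: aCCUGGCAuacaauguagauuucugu

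miR-221-3p lies at chrX:19146307-19146329, miR-221-5p at chrX:19146344-19146369 and miR-222-3p at chrX:19146901-19146923, all on the minus strand of GRCm38. The first 8 bases of miR-221-3p and miR-222-3p are identical, and 11 of their 23 positions are identical when they are laid side by side without gaps, so the likeness is at the seed end. miR-221-5p has another seed. Of the mature miRNAs in RefSeq, miR-1928 also carries the GCUACAU seed, but it had 0 counts in all 36 libraries.

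The hairpins are shown with the mature arms that RefSeq gives in capitals, since both arms of Mir221 were measured.
Mir221: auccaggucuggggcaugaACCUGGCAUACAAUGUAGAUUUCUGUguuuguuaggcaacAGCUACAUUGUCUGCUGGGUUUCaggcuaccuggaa
Mir222: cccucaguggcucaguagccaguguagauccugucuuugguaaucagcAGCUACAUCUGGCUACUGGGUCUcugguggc

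Mir221 covers chrX:19146294-19146388 (95 bases) and Mir222 chrX:19146893-19146971 (79 bases), with 504 bases between them. GENCODE places each hairpin in the single exon of its own miRNA gene and in no other gene, so the locus is intergenic with respect to protein-coding genes. The next annotated gene to the right is Gm14636, a processed transcript at chrX:19156981-19167241, on the minus strand like the hairpins.

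The complement of the shared seed, ATGTAGC, was searched on the sense strand of the longest annotated 3′ UTR of the best known targets. Cdkn1b, which encodes p27, held 1 match in a UTR of 3439 bases, and 22.3% of the 1933 UTRs within 20% of that length held at least 1. Kit held 2 matches in a UTR of 2177 bases, against 15.2% of 2737 UTRs of like length with at least 1. The matches are shown in capitals within their surroundings, and they describe letters, not tested sites.
Cdkn1b, chr6:134924419-134924441, plus strand: taaaagcattggATGTAGCattg
Kit, chr5:75654980-75655002, plus strand: gatgggagatatATGTAGCaaga
Kit, chr5:75656511-75656533, plus strand: gtaaatattgaaATGTAGCaata

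Each library held between 64264 and 273724 miRNA counts in the AGO1/3/4 experiment and between 596 and 58357 in the AGO2 experiment. Levels are given in CPM, counts per 1000000 miRNA counts with TMM-scaled library sizes. A count of 0 allows up to 3 counts, or 10.96 to 46.7 CPM before TMM in AGO1/3/4 libraries and 51.4 to 5034 CPM in AGO2 libraries. Such limits cover counting error only. At each stage every WT library was deeper than every AGO134 knockout library, and the part of depth in the results was not tested. Naive knockout replicate 4 was the shallowest at 64264 counts. All 6 T cell marker miRNAs were detected in every group. Their summed level was higher in knockout than in WT libraries, without overlap, in naive cells (140149 to 216029 against 99906 to 121986 CPM) and at day 7 (63845 to 68696 against 52140 to 55419 CPM). The ranges overlapped at day 14. In naive cells 4 of 6 were called higher and at day 7 2 of 6, where 18.3% and 14.4% of all tested miRNAs were called in either direction. At day 14, 2 were called higher and 1 lower, against 8.90% and 10.7% of all tested miRNAs. The part of these markers in the results was not tested. Of other cells, the summed myeloid marker miR-223 reached at most 42.6 CPM in any library, but other lists were higher. Epithelial markers summed to 3192 to 3497 CPM in naive WT and 3109 to 4345 CPM in naive AGO134 knockout libraries. Red cell and platelet markers summed to 283 to 804 CPM and 248 to 561 CPM in the same order. Both lists overlapped between these genotypes, and their part in the results was not tested.

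In WT cells, miR-221-3p and miR-222-3p rose when naive cells became Th2 cells, and neither passed the test between day 7 and day 14. miR-221-3p stood at 298, 216, 319 and 261 CPM in naive WT replicates 1 to 4, at 845, 735, 729 and 712 CPM at day 7, and at 674, 589 and 498 CPM at day 14. All Th2 libraries of WT cells lay above all naive ones. miR-222-3p stood at 212, 181, 201 and 234 CPM in the naive libraries, at 433, 388, 435 and 432 CPM at day 7, and at 529, 332 and 297 CPM at day 14. Day 14 replicate 1 lay above every day 7 library and the other 2 below, so the 2 times overlapped for miR-222-3p but not for miR-221-3p.

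miR-221-3p had a log2 fold change of 1.46 from naive to day 7 (SE 0.19, edgeR adjusted p = 8.5e-08), or 2.74-fold. For miR-222-3p the change was 1.03 (SE 0.19, edgeR adjusted p = 1.44e-05), or 2.04-fold. A miRNA is called here when its adjusted p is under 0.05, and 76.4% of the 382 tested miRNAs were called over this step, 39.5% of all tested being higher and 36.9% lower. A call here was thus the rule among miRNAs and not a mark of the members. From day 7 to day 14, where 25.1% of miRNAs were called higher and 24.9% lower, miR-221-3p changed by -0.36 (SE 0.19, edgeR adjusted p = 0.127) and miR-222-3p by -0.13 (SE 0.19, edgeR adjusted p = 0.597). Of the 6 endothelial and stromal marker miRNAs, 3 were tested and 2 rose over the naive to day 7 step, and their summed level was 141 to 374 CPM in naive WT libraries and 882 to 1051 CPM at day 7. miR-145a-5p of that list was at 0 in all naive WT libraries. Of other lists, 3 of 5 tested epithelial, the 1 tested red cell and platelet and 4 of 6 T cell markers were called lower over this step. The part of any of these cells in the rise was not tested.

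In AGO134 knockout cells the cluster took another course late in culture: the 3p members rose from day 7 to day 14. miR-221-3p stood at 341, 269, 425 and 203 CPM in naive knockout replicates 1 to 4, at 697, 546, 608 and 559 CPM at day 7, and at 1707, 859 and 1100.2 CPM in day 14 replicates 2, 3 and 4. miR-222-3p stood at 151, 151, 227 and 135 CPM in the naive knockout libraries, at 474, 389, 367 and 550.5 CPM at day 7, and at 1391, 949.7 and 1117 CPM at day 14. Every day 14 knockout library lay above every other library of the experiment for both miRNAs with TMM scaling. Before TMM this held for miR-222-3p but not for miR-221-3p, where knockout replicate 3 at 742 CPM lay below the day 7 WT libraries at 844 to 943 CPM.

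**Figure D1:**
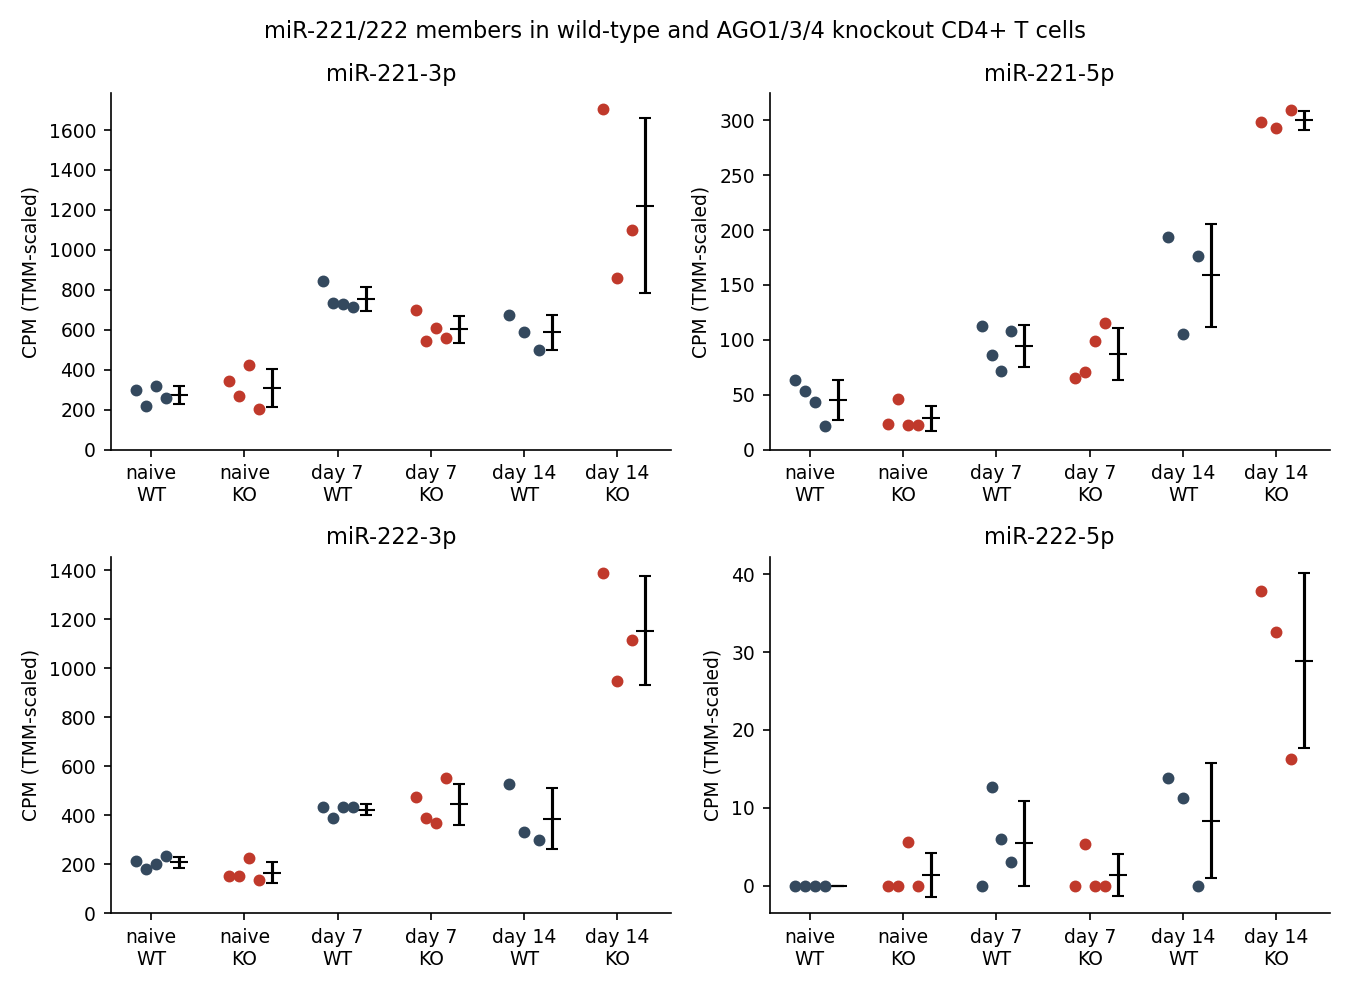
CPM of the 4 members in each library of the AGO1/3/4 experiment (points; dark, WT; red, knockout, KO), with the group mean and SD beside the points, on a linear axis per member. With TMM scaling the 3 day 14 knockout libraries lie above all others in each panel, from 859 to 1707 CPM for miR-221-3p (before TMM, replicate 3 at 742 CPM lies below day 7 WT) and from 949.7 to 1391 CPM for miR-222-3p.

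At day 14, all 3 tested members were higher in knockout than in WT cells, where 19.6% of tested miRNAs were called, 8.90% higher and 10.7% lower. miR-222-3p stood at 1152 ± 223 against 386 ± 125 CPM (SD, n = 3 and 3), a 2.98-fold difference with a log2 fold change of 1.58 (SE 0.20, edgeR adjusted p = 1.04e-06). Only 2 of the 382 tested miRNAs had a smaller p-value in this comparison. miR-221-3p stood at 1222 ± 437 against 587 ± 88.1 CPM, or 2.09-fold, with a log2 fold change of 1.06 (SE 0.21, edgeR adjusted p = 0.000285), and was 24th by p. miR-221-5p, the strand of the same hairpin that is mostly discarded, stood at 298, 293 and 309.7 CPM in the knockout against 194, 106 and 177 CPM in WT libraries, and no library of one group reached the other. Its log2 fold change was 0.91 (SE 0.23, edgeR adjusted p = 0.00407). Knockout replicate 2 held the highest level of both 3p members, and without it the log2 fold changes were 0.75 for miR-221-3p (edgeR adjusted p = 0.0106) and 1.42 for miR-222-3p (edgeR adjusted p = 2.55e-05). The summed endothelial and stromal markers overlapped between genotypes at day 14, at 525 to 685 CPM in WT and 546 to 771 CPM in knockout libraries.

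miR-222-5p, the discarded strand of Mir222, was at the edge of detection and did not pass the filter on low counts. It had 4, 3 and 0 counts in the WT day 14 libraries and 8, 5 and 4 in the knockout libraries. The pooled ratio of knockout to WT was 3.01 with an exact 95% binomial interval of 1.19 to 8.58, which covers counting error only. The interval included equal levels without WT replicate 3 (1.995, 0.786 to 5.69) or knockout replicate 2 (2.42, 0.801 to 7.64), and the ratio was 4.64 without WT replicate 1. Naive WT libraries had 0 counts of 892955, which allows up to 3.36 CPM, and WT day 7 libraries had 0, 4, 2 and 1. Knockout cells had 1 count over the 4 naive libraries and 1 over the 4 day 7 libraries, so that the ratio of day 14 to day 7 was 18.5 with an interval of 2.90 to 775, resting on the 1 count of day 7 replicate 2.

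No member was called between the genotypes in naive cells, where 18.3% of miRNAs were, or at day 7, where 14.4% were. In naive cells, miR-221-3p stood at 309 ± 95.5 CPM in knockout and 274 ± 45.1 CPM in WT (log2 fold change 0.25, SE 0.22, edgeR adjusted p = 0.471), and the libraries overlapped. miR-222-3p stood at 166 ± 41.1 against 207 ± 22.2 CPM (-0.25, SE 0.23, edgeR adjusted p = 0.492), again with overlap, since knockout replicate 3 at 227 CPM lay within the WT range. At day 7, miR-221-3p was at 546 to 697 CPM in knockout and 712 to 845 CPM in WT libraries without overlap, but the difference of -0.32 did not pass the test over all miRNAs (SE 0.18, edgeR adjusted p = 0.303). miR-222-3p stood at 445 ± 83.9 against 422 ± 22.5 CPM at day 7 (0.06, SE 0.18, edgeR adjusted p = 0.903).

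The knockout effect on the 3p members differed between day 14 and day 7 by a direct test of that difference (an interaction). It was 1.52 on the log2 scale for miR-222-3p (SE 0.26, edgeR adjusted p = 0.000171) and 1.38 for miR-221-3p (SE 0.28, edgeR adjusted p = 0.000816), where 5.50% of all tested miRNAs were called higher. Both calls held under every alternative that was run, including leaving out each library. miR-221-5p had a difference of 1.05 (SE 0.35, edgeR adjusted p = 0.0460), a call that ended when any of 8 of the libraries was left out and in 6 of the other alternatives, with adjusted p up to 0.145. Between day 7 and naive cells, where 2.36% of all tested miRNAs were called, the difference passed for none of the 3 members (edgeR adjusted p from 0.427 to 0.714). It was nearest for miR-221-3p, at -0.57 with an unadjusted edgeR p of 0.0558, and none of the 3 was under 0.05 before adjustment.

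All of these values compare a miRNA with the rest of its own library. The files also hold 9 entries named STD, which name no miRNA and whose nature the labels do not give. When libraries were scaled to these entries instead, the median of all 382 tested miRNAs moved from near 0 to -0.77 in naive cells, -0.63 at day 7 and -0.44 at day 14. On that scale miR-222-3p was also higher in day 14 knockout cells (log2 fold change 1.14, edgeR adjusted p = 0.00881), while miR-221-3p (0.63, edgeR adjusted p = 0.178) and miR-221-5p (0.46, edgeR adjusted p = 0.299) no longer passed. Relative to the median of all miRNAs on the STD scale the 3 members stood at 1.07 (miR-221-3p), 0.89 (miR-221-5p) and 1.57 (miR-222-3p). With library size as the only scaling these distances were 1.06, 0.90 and 1.57 in the same order. A change of scaling moves members and median nearly together, so the distances do not test whether the effect holds on another scale. Differences between day 14 and day 7 kept their calls for the 3p members on the STD scale, at 1.56 for miR-221-3p (edgeR adjusted p = 0.0404) and 1.70 for miR-222-3p (edgeR adjusted p = 0.0167).

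**Figure D2:**
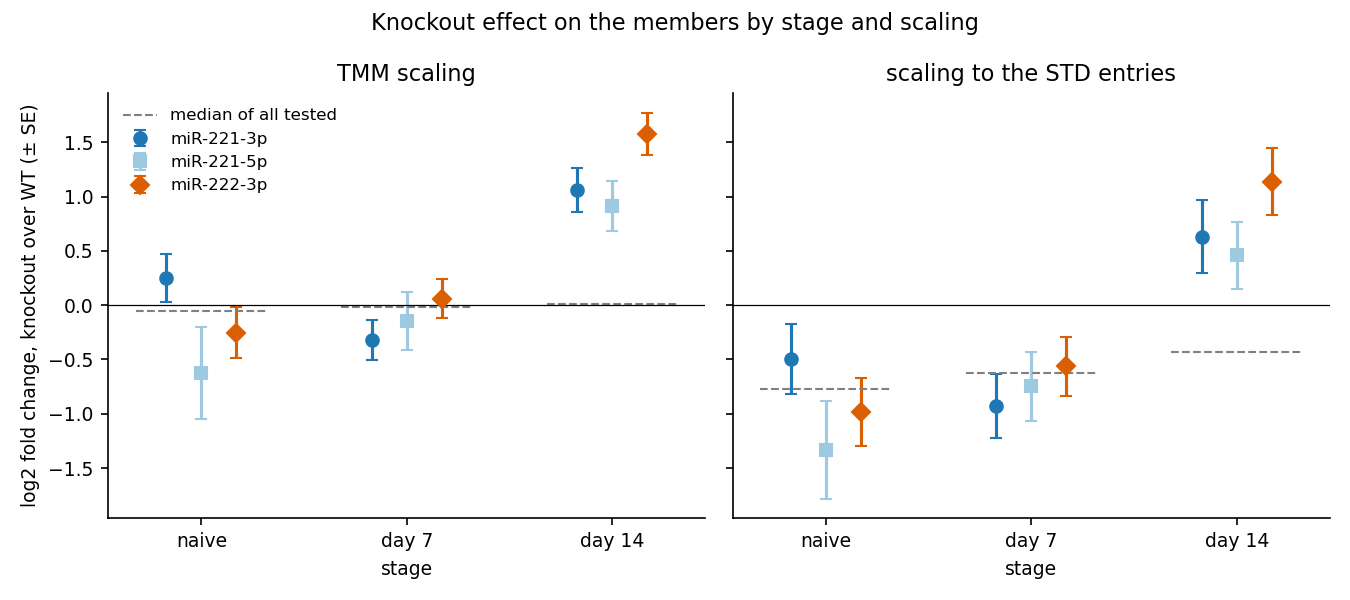
log2 fold change of knockout over WT for the 3 tested members (points with SE) at each stage, with TMM scaling on the left and scaling to the STD entries on the right, and the median of all tested miRNAs as a dashed line. All 3 members lie above the median at day 14 with either scaling. For example, miR-222-3p lies at 1.58 and 1.14 with medians of 0.01 and -0.44. Members and median move nearly together when the scaling changes, so this position does not test whether the effect holds on the STD scale. On that scale only miR-222-3p of the 3 members passed the edgeR test at day 14.

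Within knockout cells, all 3 tested members rose at both steps. From naive to day 7, where 39.8% of miRNAs were called higher, the log2 fold changes were 0.89 for miR-221-3p (edgeR adjusted p = 0.000497), 1.48 for miR-221-5p (edgeR adjusted p = 0.00156) and 1.34 for miR-222-3p (edgeR adjusted p = 4.22e-06). From day 7 to day 14, where 21.5% were called higher, they were 1.02 (edgeR adjusted p = 0.000108), 1.82 (edgeR adjusted p = 1.1e-06) and 1.39 (edgeR adjusted p = 6.7e-07) in the same order. Markers of other cells moved over these steps too: 2 of 3 tested endothelial and stromal markers rose from naive to day 7 (summed level 135 to 579.6 and then 679 to 1002 CPM), and 2 of 3 fell to day 14. From naive to day 7, 3 of 5 tested epithelial, the 1 tested red cell and platelet and 4 of 6 T cell markers fell, as in WT cells. Of all 382 tested miRNAs, 283 were called over this step in knockout cells, 152 of them higher and the rest lower. From day 7 to day 14 the 1 tested red cell and platelet marker, miR-486a-5p, rose (1.30), and 4 of 5 tested epithelial and 3 of 6 T cell markers fell. Here 171 of the 382 were called, 82 of them higher and the rest lower. WT cells showed similar shifts over that step. There miR-486a-5p rose (1.12), 2 of 3 endothelial and stromal, 3 of 5 epithelial and 2 of 6 T cell markers fell, and 1 T cell marker rose. Of all tested miRNAs, 25.1% were called higher and 24.9% lower in WT cells over that step. The part of these markers in the results was not tested. Ordered by mean level, both naive groups were lowest for every tested member and day 14 knockout highest. For miR-222-3p, the day 14 WT, day 7 WT and day 7 knockout groups at 386, 422 and 445 CPM overlapped in their libraries and cannot be ranked among themselves. For miR-221-3p, day 14 WT at 587 CPM and day 7 knockout at 602 CPM overlapped, while day 7 WT at 756 CPM lay apart from both.

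miR-221-5p was called at both steps in WT cells. It stood at 63.3, 53.0, 43.4 and 21.3 CPM in the naive WT libraries, at 112, 86.0, 72.0 and 108 CPM at day 7 and at 194, 106 and 177 CPM at day 14. Its log2 fold change was 0.998 from naive to day 7 (SE 0.28, edgeR adjusted p = 0.00187) and 0.76 from day 7 to day 14 (SE 0.23, edgeR adjusted p = 0.00755). That second call was lost without WT day 14 replicate 1 (0.59, edgeR adjusted p = 0.0617) and with scaling to the STD entries (0.58, edgeR adjusted p = 0.128). In knockout cells it stood at 23.8, 45.9, 22.7 and 22.5 CPM in naive libraries, where each rests on 1 to 7 counts, and at 65.3, 70.3, 98.6 and 115 CPM at day 7.

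Ratios within a library do not depend on scaling, so the share of the 5p arm among all miR-221 counts was compared between groups. The 5p arm made up 14.5% of miR-221 counts in naive WT (exact 95% binomial interval of the pooled counts, 10.8% to 19%), 11.1% at day 7 (9.21% to 13.2%) and 21.4% at day 14 (18.3% to 24.8%). In knockout cells it made up 8.20% (4.66% to 13.2%), 12.2% (9.35% to 15.5%) and 19.4% (16.96% to 22.1%). These intervals cover counting error only. Every WT day 14 library, at 22.3%, 15.2% and 26.2%, lay above every WT day 7 library, at 8.99% to 13.2%. The log2 ratio of 3p to 5p fell by 1.08 in mean from day 7 to day 14 in WT, a two-sided exact permutation p of 0.0571, the smallest that 3 against 4 libraries allow (Benjamini-Hochberg adjusted p = 0.200 over 21 ratio tests). In knockout cells it differed by -0.82 (exact permutation p = 0.114, adjusted p = 0.218). At day 14 the mean log2 ratio was 1.96 in knockout and 1.91 in WT, with overlapping libraries (exact permutation p = 0.70, where 0.10 is the smallest possible).

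The balance of the seed-sharing partners was compared in the same way. miR-221-3p made up 57.3% of the summed miR-221-3p and miR-222-3p counts in naive WT (exact 95% interval 52.6% to 61.9%), 64.0% at day 7 (61.4% to 66.5%) and 60.2% at day 14 (56.8% to 63.6%). Its share in knockout cells was 65.6% (59.5% to 71.4%), 58.3% (54.5% to 62.0%) and 51.7% (49.1% to 54.2%), so the order of the pooled shares over the stages was not that of WT. These intervals cover counting error only. The libraries of successive stages overlapped within each genotype, except naive and day 7 in WT. At day 14, knockout libraries at 55.1%, 47.5% and 49.6% lay below all WT libraries at 56.0%, 63.9% and 62.7%.

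The log2 ratio of miR-222-3p to miR-221-3p was -0.04 in day 14 knockout and -0.64 in day 14 WT libraries, a difference of 0.60 (two-sided exact permutation p = 0.10, the smallest that 3 against 3 allow). Knockout and WT differed by -0.47 in naive cells and by 0.39 at day 7 (exact permutation p = 0.0571 for each). The drop of 0.45 in WT cells from naive to day 7 had p = 0.0286 (exact permutation, the smallest that 4 against 4 allow). None of the 21 exact permutation tests passed adjustment (lowest adjusted p = 0.200), and none could have passed with so few libraries. Exact permutation tests with a group of 3 libraries could not have gone below p = 0.05. For 4 against 4, even the smallest exact permutation p of 0.0286 stays over the threshold once adjusted over these 21 tests. The adjusted values therefore cannot decide whether any of these ratios differed. The 7 tests on the arms of miR-222 rest on 0 to 8 counts of miR-222-5p in a library, and no direction is drawn from them.

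**Figure D3:**
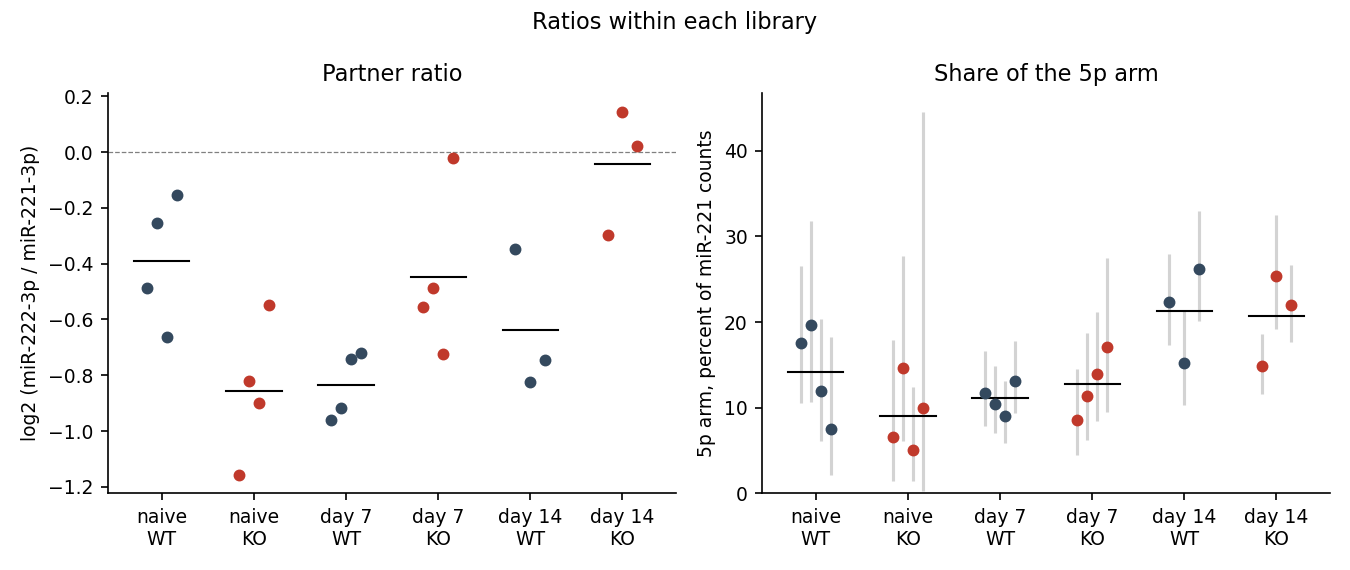
Left, log2 ratio of miR-222-3p to miR-221-3p counts in each library with a pseudocount of 0.5; right, the 5p arm as a percent of miR-221 counts with exact 95% binomial intervals in grey (counting error only); black lines are group means of the libraries. Day 14 knockout libraries lie near 0 on the left, with a mean of -0.04 against -0.64 in WT, and both day 14 groups lie near 20% on the right.

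The miRNAs whose pattern was most like that of the 3p members were ranked by Pearson correlation of log2 CPM over the 22 libraries of the AGO1/3/4 experiment. The points share libraries, depth and 6 groups, so the values describe likeness and carry no p. miR-222-3p was the most like miR-221-3p of 381 tested miRNAs, and the reverse held too (r = 0.93). Next for miR-221-3p came miR-501-5p (0.89), miR-503-5p (0.88) and miR-322-5p (0.88), and for miR-222-3p miR-503-5p (0.88), miR-1839-5p (0.88) and miR-532-5p (0.87). RefSeq places miR-501, miR-503 and miR-322 on chromosome X and miR-1839 on chromosome 7, and no chromosome was found there for miR-532-5p. miR-221-5p ranked 40th for miR-221-3p (r = 0.80) and 6th for miR-222-3p (r = 0.86).

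After the group means were taken out, miR-221-3p and miR-222-3p still varied together over the libraries (r = 0.66). This was not particular to the pair. For miR-221-3p the value was 0.65 with miR-501-5p, 0.49 with miR-503-5p and 0.45 with miR-322-5p. For miR-222-3p it was 0.57 with miR-1839-5p, 0.30 with miR-503-5p and 0.18 with miR-532-5p. miR-221-5p did not vary with either 3p member (-0.16 and -0.06), but it had only 1 to 17 counts in naive libraries. Group means of the 5 look-alike miRNAs were above the naive means in every Th2 group. At day 14, the mean level in knockout and in WT was 1364 and 952 CPM for miR-503-5p, 711 and 700.1 CPM for miR-322-5p, and 211 and 213 CPM for miR-501-5p. It was 1055 and 847 CPM for miR-1839-5p and 15349 and 11704 CPM for miR-532-5p. Each of these pairs was closer, as a ratio of means, than the pair of any tested member.

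**Figure D4:**
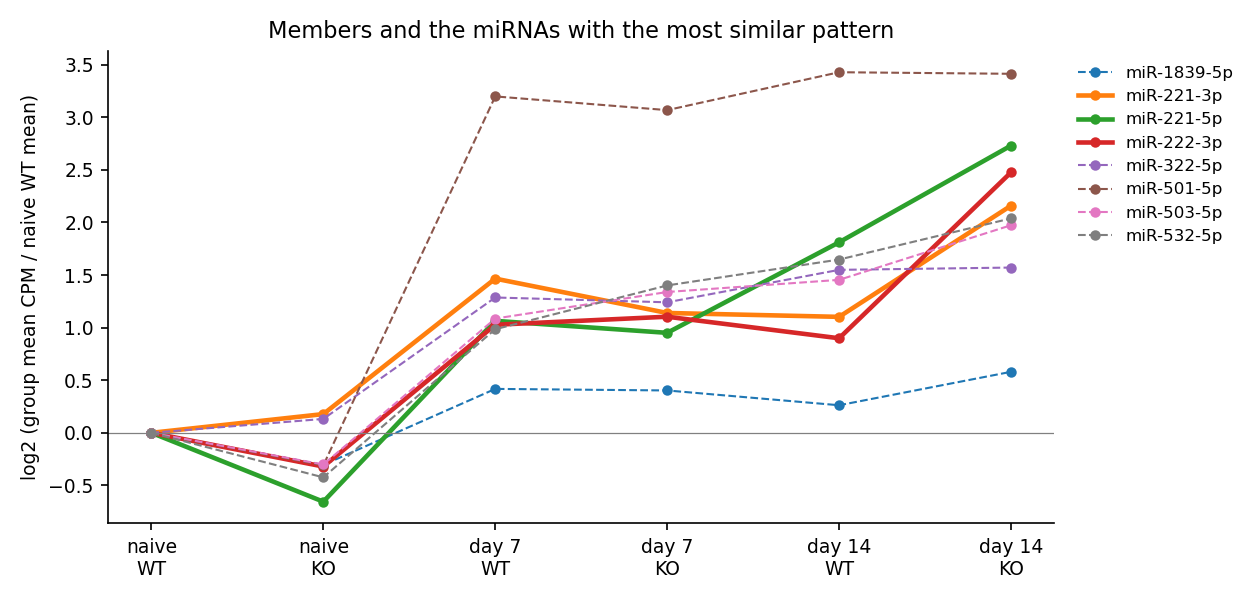
Group mean CPM of the tested members (thick lines) and of the 5 miRNAs named as most like them (dashed), as log2 ratio to the naive WT mean; lines only join the groups. All lie above their naive WT mean in Th2 cells, and the members show the largest step between day 14 WT and day 14 knockout, for example 386 to 1152 CPM for miR-222-3p.

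The cluster was set beside other miRNAs of related roles. Of 21 miRNAs known to be induced by T cell activation, 20 were tested, and in WT cells 15 rose and 3 fell from naive to day 7, with a median log2 fold change of 1.09 against 0.11 over all tested, of which 39.5% rose and 36.9% fell. At day 14, 2 of the 20 were higher in knockout and 5 lower, with a median of -0.05 against 0.01 over all tested, of which 8.90% were higher and 10.7% lower. The lower ones with the largest changes were miR-212-5p (-2.45), miR-212-3p (-1.81) and miR-132-3p (-1.75), products of a CREB-responsive cluster, and miR-146b-5p (-1.64), a brake on NF-kB signalling. miR-31-5p (1.15) and miR-92a-3p (1.14) were the 2 that were higher, named after their values were seen. On the STD scale 0 members of the list were called higher and 7 lower, against 0.524% and 18.8% of all tested miRNAs.

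All 4 other miRNAs listed as known to target p27 mRNA were tested, and at day 14 miR-152-3p (-2.10, edgeR adjusted p = 1.07e-06) and miR-148a-3p (-0.57, edgeR adjusted p = 0.00784) were lower in knockout, while miR-181a-5p was higher (0.69, edgeR adjusted p = 0.00808). The median of the 4 was -0.28, and a list of 4 is too short to set against the 8.90% higher and 10.7% lower of all miRNAs. With DESeq2 size factors and on the STD scale 0 of the 4 were called higher and 2 lower (median -0.33 and -0.72), so the higher call of miR-181a-5p depended on the scaling. None of the 3 listed miRNAs that target Kit mRNA passed the filter on low counts. Of 146 further miRNA names on chromosome X, 35 were tested, and 3 were higher and 2 lower in day 14 knockout cells, near or below the 8.90% and 10.7% of all miRNAs, with a median of 0.06. That median was -0.09 when only library size was used and -0.38 on the STD scale, against -0.15 and -0.44 over all tested miRNAs. The largest changes were in miR-98-3p (-2.04), miR-504-5p (-1.02), miR-1198-5p (0.81) and miR-20b-5p (0.70). No comparison of lists was tested, and these counts describe these libraries.

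In the AGO2 experiment, the cluster was hardly counted and no member passed the filter on low counts, so no knockout effect was tested within that experiment. The naive Cre libraries had 0 counts of every member, in libraries of 8643, 596 and 2156 miRNA counts. Over the 4 naive AGO2 knockout libraries there was 1 count each of miR-221-3p, miR-221-5p and miR-222-3p and 0 of miR-222-5p. Levels in naive cells of that experiment could not be estimated at this depth.

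Th2 cells gave a few counts. miR-221-3p had 9, 6 and 6 counts in Cre libraries A, B and C and 1, 0, 2 and 17 in AGO2 knockout libraries D to G, a pooled ratio of 1.28 (exact 95% binomial interval 0.657 to 2.48). Without library G, which held 17 of the 20 knockout counts, the ratio turned to 0.297 (0.0567 to 0.994), so its direction rests on that library. miR-222-3p had 7, 3 and 1 counts against 7, 1, 2 and 4, a ratio of 1.71 (0.720 to 4.15), which was 1.10 without library D and 2.99 without Cre library A. With all libraries both intervals include equal levels.

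The 5p arms had few counts too. miR-221-5p had 1, 0 and 2 counts in Cre and 4, 0, 2 and 7 in knockout libraries, a pooled ratio of 5.81 (exact 95% binomial interval 1.60 to 31.8). The libraries of both groups overlapped, and the interval covers counting error only, which replicates of these groups exceeded. Without Cre library C, which held 2 of the 3 Cre counts, the ratio was 12.9, and the interval included equal levels without Cre library B (3.61, 0.991 to 19.7) or knockout library G (4.16, 0.887 to 25.7). miR-222-5p had 0 counts in all 3 Cre libraries and 3, 0, 3 and 1 in knockout libraries, or 61.0 CPM (exact 95% Poisson interval 24.5 to 126) against a floor of 19.5 CPM for 3 counts over the Cre group. In the fit of all 36 libraries the members passed the filter through the AGO1/3/4 libraries alone, so the difference between the AGO2 effect in Th2 cells and the AGO1/3/4 effect at day 7 is given as a value and supports no difference. It was 2.93 on the log2 scale for miR-221-5p (SE 0.90, edgeR adjusted p = 0.0111), where 10.1% of 376 tested miRNAs were called higher. Its adjusted p was over the threshold without Cre library B (2.2, edgeR adjusted p = 0.0826), without knockout library G (2.50, edgeR adjusted p = 0.0969) and with scaling to the STD entries (1.83, edgeR adjusted p = 0.159). For miR-221-3p (0.93, edgeR adjusted p = 0.284) and miR-222-3p (1.02, edgeR adjusted p = 0.285) the difference did not pass. The experiments differ in day of culture, in depth and in their controls, which cannot be told apart from the genotype here.

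**Figure D5:**
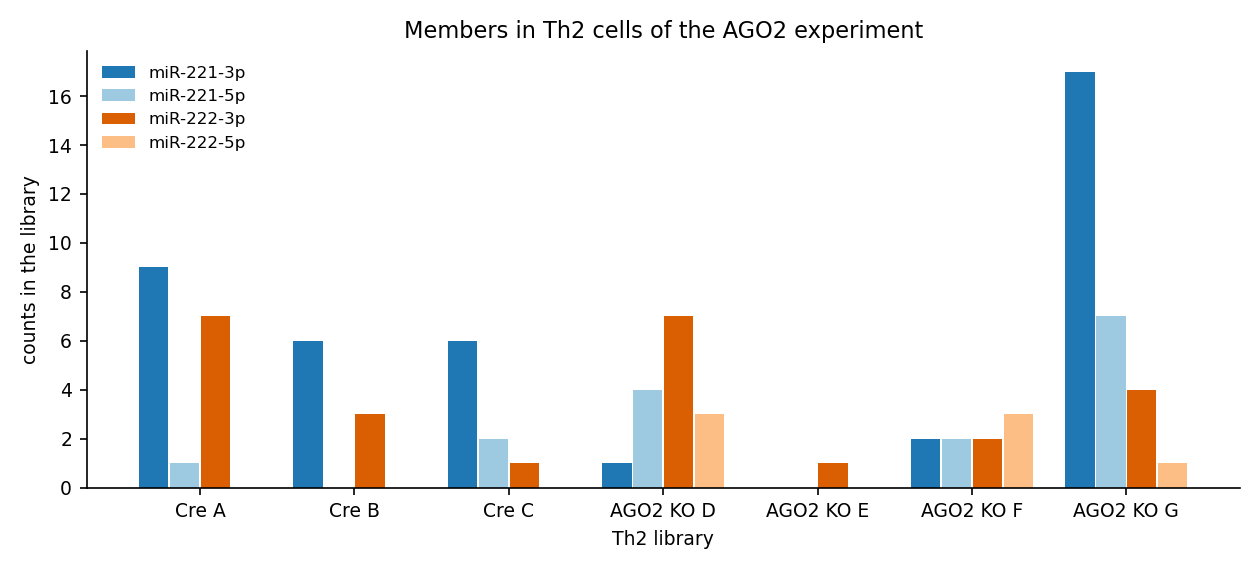
Counts of the 4 members in each Th2 library of the AGO2 experiment (bars, linear axis from 0), with Cre controls A to C and AGO2 knockout libraries D to G. No bar exceeds 17 counts, and miR-222-5p was counted in knockout libraries D, F and G and in none of the Cre libraries.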

How the data were processed

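The authors deposited whole-number counts, 1 per mature miRNA and locus per the file headers. The submitters' processing notes name GRCm38. Aligner, counter and miRNA database release were not given in the sources used here. A library lists 2119 entries, and there are 36 libraries. The 9 STD entries, 32.0% to 86.7% of a library's counts, were kept out of library sizes. Of names with several loci the entry with the highest total was used, and each member has 1 entry. Library depth, given with the results, sets the precision.

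The test of counts was edgeR's quasi-likelihood F test, version 4.0.16 (R 4.3.3; TMM, filterByExpr at 10 counts, Benjamini-Hochberg adjustment, no minimum fold), with all groups of an experiment in 1 fit and all 36 libraries for the difference between experiments. The fit and the ratio tests were run on simulated data. For the ratio tests this covered 4 against 4 libraries without adjustment, so it does not bear on smaller groups or adjusted values. Ratios used a pseudocount of 0.5, libraries with at least 10 counts over both miRNAs, and exact permutation tests (scipy 1.17.1). Alternatives were other scalings, DESeq2 1.42.0, no filter, all loci, only the groups compared, a replicate block, and leaving out each library (for pooled count ratios, added after seeing the data). No 2 replicates agreed within sampling noise (48 pairs, lowest chi-square per degree of freedom 1.88).

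The members and the lists were chosen with earlier results of these data known. Beside the members, the text names the 3 tested miRNAs most correlated with each 3p member, miRNAs with the same seed, and up to 4 called members per list with the largest change. Chromosomes were taken from RefSeq, since the count files hold no coordinates.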

Additional observations from a re-analysis of the deposited data

Results flagged for a closer look

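The knockout effect at day 14 differed from that at day 7, by a test of the difference itself, for miR-221-3p (1.38 on the log2 scale) and miR-222-3p (1.52). For miR-221-5p (1.05) the call held in 8 of 22 alternatives. The difference between the AGO2 effect in Th2 cells and the AGO1/3/4 effect at day 7 was 2.93 for miR-221-5p. That value rests on 3 counts in Cre and 13 in AGO2 knockout libraries of a miRNA that passed the filter through the AGO1/3/4 libraries alone, and its call ended without Cre library B, without knockout library G and on the STD scale, so it supports no difference.

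In 8 of the 22 sets of 4 libraries checked, 1 library stood far from the other 3. In 5 of them the other 3 libraries had 0 counts, which always meets this criterion and says nothing, and the library had a single count: miR-221-3p in naive AGO2 knockout library D (67.4 CPM), miR-221-5p in library F (200.1 CPM), miR-222-3p in library E (118 CPM), and miR-222-5p in naive AGO134 knockout replicate 3 (5.66 CPM) and in day 7 knockout replicate 2 (5.41 CPM). In the other 17 sets there were 3, where chance gives about 1 in 20: miR-221-3p in Th2 AGO2 knockout library G (338 CPM, 17 counts), miR-221-5p in naive AGO134 knockout replicate 2 (45.9 CPM, 7 counts) and miR-222-3p in day 7 WT replicate 2, the low one at 388 CPM.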

How the results depend on the processing

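For miR-221-3p and miR-222-3p, 335 of 352 values under an alternative kept their direction and their side of the threshold. With scaling to the STD entries, miR-221-3p in day 14 knockout cells lost its call (0.63), miR-222-3p in naive (-0.98, edgeR adjusted p = 0.0103) and miR-221-3p in day 7 knockout cells (-0.93, edgeR adjusted p = 0.0232) gained one, and uncalled values changed sign for miR-221-3p in naive knockout cells (-0.49), miR-222-3p at day 7 (-0.56) and the difference between AGO2 and AGO1/3/4 effects (-0.15 for miR-221-3p, -0.0376 for miR-222-3p). With library size as the only scaling, uncalled signs changed for miR-221-3p in naive (-0.0432) and miR-222-3p in day 7 knockout cells (-0.24). The latter also changed sign without the filter (-0.0240) and with only the groups compared (-0.00213), and ranged from -0.0814 to 0.127 over left-out libraries. From day 7 to day 14 in WT cells, miR-221-3p was called with only the groups compared (-0.36, edgeR adjusted p = 0.0480), and miR-222-3p was at 0.0312 with all loci and -0.42 to 0.0457 over left-out libraries, the highest without WT day 14 replicate 3. The difference between AGO2 and AGO1/3/4 effects on miR-221-3p ranged from -1.09 to 1.28, the lowest without library G. The causes were not tested.

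Over left-out libraries, the log2 ratio of arms ranged from -0.23 to 0.32 (miR-221) and -0.99 to 0.38 (miR-222) for knockout against WT at day 14, and for miR-222 in WT from -0.87 to 0.11 (naive to day 7, 0.16 with a pseudocount of 1) and -1.35 to 0.0249 (day 7 to day 14). Counts of called miRNAs moved by over 1.5 times with scaling to the STD entries in naive (204 against 70) and day 7 (129 against 55) knockout cells and in the difference between days 14 and 7 (15 against 46), from day 7 to day 14 in knockout cells (113 against 171), with no filter at day 7 (35), and over left-out libraries: in naive cells without WT replicate 1 (37) or knockout replicate 4 (46), at day 7 without WT replicate 2 (34), 3 (36) or 4 (36) or knockout replicate 4 (24), and for the difference between days 14 and 7 without WT day 14 replicate 3 (30). For the difference between day 7 and naive cells they ran from 1 to 15 against 9.

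Pooled count ratios were recomputed without each library, an alternative chosen after seeing the data. The ratio of AGO2 knockout to Cre for miR-221-3p in Th2 cells ranged from 0.297 (without library G) to 1.69, and no other pooled ratio changed direction.

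Deviations of same-numbered or same-lettered libraries from their group means correlated weakly (from -0.27 to 0.15). With so few libraries this does not show whether they come from the same mouse. The main fit treats all libraries as independent. With the replicate block, miR-222-3p in day 14 knockout cells had 1.62, miR-221-3p 1.17, and the day 14 minus day 7 difference of miR-221-5p 1.12 (edgeR adjusted p = 0.0510), the 1 call of a member that it ended.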

Other observations

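Over both hairpins, 5p arms made up 20 of 54 member counts in Th2 AGO2 knockout libraries (37.0%, exact 95% binomial interval 24.3% to 51.3%) and 3 of 35 in Th2 Cre libraries (8.57%, 1.80% to 23.1%). By library the shares were 5.88%, 0% and 22.2% in Cre libraries A, B and C, and 46.7%, 0%, 55.6% and 27.6% in knockout libraries D, E, F and G, where E held 1 count. In the AGO1/3/4 experiment the same share was 7.80% in WT and 7.62% in knockout cells at day 7, and 14.7% and 11.98% at day 14. This summary was chosen after the values were seen and was not tested. It pools reads over libraries, although reads of the same library are not independent.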
